A study of Mus musculus with 8 samples.

Results

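The genes described here are 32 mouse genes of the presynaptic vesicle cycle, chosen by name for their part in filling, docking, fusing or recovering synaptic vesicles, out of 24498 genes in the table. All 32 had a mean of at least 10 normalized read counts over the libraries and were among the 12681 genes tested. The data are polyA RNA sequencing of dorsal hippocampus from C57BL/6J males, 10 to 12 weeks old. Knockdown mice received the vector AAV2/9.U6.shACSS2.CMV.EGFP, which expresses EGFP and a short hairpin that targets the Acss2 mRNA. Control mice received AAV2/9.CMV.EGFP, which carries no hairpin cassette. Every mouse was handled on 3 days beforehand. With each vector, trained mice met 3 objects in an arena in 3 trials of 6 min and were killed 30 min after training, while untrained mice stayed in the home cage, 3 weeks after injection in both cases. Each of the 4 groups had 2 libraries, and the labels do not say how many mice a library holds. The hairpin was driven by the U6 promoter, which is active in any transduced cell, and the labels do not give the share of cells that the virus reached. ACSS2 makes acetyl-CoA, the donor of acetyl groups for histones, from acetate.

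At a presynaptic terminal, vesicles are loaded with transmitter by transporters, held in a reserve pool by synapsins, and docked at a protein scaffold called the active zone. The SNARE proteins of the vesicle (synaptobrevins) and of the plasma membrane (syntaxin and SNAP-25) then zip together, and synaptotagmin triggers their fusion when calcium enters. NSF and its SNAP adaptors take the SNARE complex apart, and dynamin, amphiphysin, endophilin and synaptojanin bring vesicle membrane back by endocytosis. The transcripts lie largely in neuronal cell bodies, so RNA of a dissected hippocampus reports mainly on neurons whose bodies are in the dissected tissue. Such neurons are pyramidal cells of the CA fields, granule cells of the dentate gyrus and interneurons.

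Promoter sequences are shown for Syp (synaptophysin, an abundant vesicle membrane protein) and Stx1a (syntaxin-1A, the plasma membrane SNARE), because these were the 2 members whose 4 knockdown values all lay below the 4 control values. Each runs 5′ to 3′ from 250 bases before the RefSeq start of the gene (GRCm38.p6) to 50 after it. The windows lie at chrX:7638330-7638629 on the plus strand for Syp and chr5:135023232-135023531 on the plus strand for Stx1a. GENCODE vM21 places the start of Syp elsewhere, at 7638471, inside the window. Capitals mark each GC box, GGGCGG, the sequence that transcription factors of the Sp family bind.
Syp: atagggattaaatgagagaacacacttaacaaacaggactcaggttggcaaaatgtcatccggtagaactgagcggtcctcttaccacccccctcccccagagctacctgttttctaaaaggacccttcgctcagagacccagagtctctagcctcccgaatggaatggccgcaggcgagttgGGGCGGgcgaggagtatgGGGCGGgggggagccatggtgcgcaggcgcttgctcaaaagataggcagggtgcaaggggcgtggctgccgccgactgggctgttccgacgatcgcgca
Stx1a: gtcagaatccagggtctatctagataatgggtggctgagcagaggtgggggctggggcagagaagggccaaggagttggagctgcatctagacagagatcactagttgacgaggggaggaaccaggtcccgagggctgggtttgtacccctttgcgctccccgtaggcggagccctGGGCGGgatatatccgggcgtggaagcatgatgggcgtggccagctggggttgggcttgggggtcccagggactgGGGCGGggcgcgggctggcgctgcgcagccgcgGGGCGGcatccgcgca
The Syp window held 2 GC boxes and the Stx1a window 3, with a GC content of 59.0% and 66.3%. A promoter window was found for 27 of the 32 members, 37 windows in all, since some genes have several starts. On either strand the GC box was in 21 of these 37 windows (56.8%), against 35.7% of the 32851 promoter windows of all genes. The windows of the members were also richer in G and C, with a median of 61.3% against 52.7% over all windows, so the short GC-rich motif has more chances to occur in them. TGACGTCA, the cyclic AMP response element that CREB binds, was in 3 windows (8.11%, those of Napa, Sh3gl2 and Syn1), against 1.79% of all windows. GCGCATGC, the core of the motif of the nuclear respiratory factor NRF1, was in 2 windows (5.41%, those of Bsn and Syn1), against 2.71% of all windows. These are matches of letters in a window of 300 bases and show neither binding nor use of a site.

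Libraries are called here by the end of their deposited column names. With the knockdown vector, KD.249 and KD.251 came from trained mice, and KD.253 and KD.255 from untrained mice. With the control vector, eGFP.250 and eGFP.266 came from trained mice, and eGFP.254 and eGFP.268 from untrained mice. The depth was 6537749 to 9863728 reads in genes for 6 libraries, against 1484318 for KD.251 and 272456 for KD.255, where 1 read equals 15.6 normalized counts. Acss2 stood at 25.6 and 57.7 in trained and 25.0 and 15.6 (1 read) in untrained knockdown libraries, against 87.4 and 67.5 in trained and 58.2 and 82.0 in untrained control libraries. Neurod6, Wfs1 and Prox1, which mark hippocampal pyramidal and granule cells, were read in every library, at no less than 311 normalized counts. Markers of choroid plexus, a tissue next to the hippocampus, summed to 61099 in eGFP.250 and 15856 in eGFP.254, against 259 to 2002 in the other 6 libraries.

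Most of the members were abundant RNAs. Reads of the 32 genes made up 1.82% to 2.08% of all reads in genes in knockdown libraries and 1.99% to 2.38% in control libraries. By their level in control libraries, 24 of the 32 stood in the upper 10% of all tested genes, while Doc2a, Slc17a6 and Syngr3 stood below the middle. Per kb of the principal transcript, control libraries averaged 6158 normalized counts for Snap25 (a plasma membrane SNARE), 3344 for Syp, 2494 for Syt1 (the calcium sensor of fast release), 2143 for Vamp2 (the vesicle SNARE of forebrain synapses) and 1876 for Cplx2 (complexin-2, which clamps and primes SNARE complexes). Knockdown libraries averaged 5387, 2547, 2204, 1802 and 1470 per kb for the same 5 genes, in the same order. At the low end, Slc17a6 (the vesicular glutamate transporter VGLUT2, typical of thalamic and other subcortical neurons) stood at 10.0 per kb in knockdown and 19.5 in control libraries. Doc2a (a calcium sensor with a high affinity, linked to spontaneous and asynchronous release) stood at 16.8 in knockdown and 25.8 in control libraries. Syngr3 (a vesicle membrane protein of the synaptogyrin family) stood at 33.4 in knockdown and 41.1 in control libraries. The order depends on the length used. With all annotated exons of a gene joined, control libraries gave 1919 per kb for Snap25, 1876 for Cplx2 and 1663 for Syp, so the distance between these 3 genes is not firm.

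**Figure D1:**
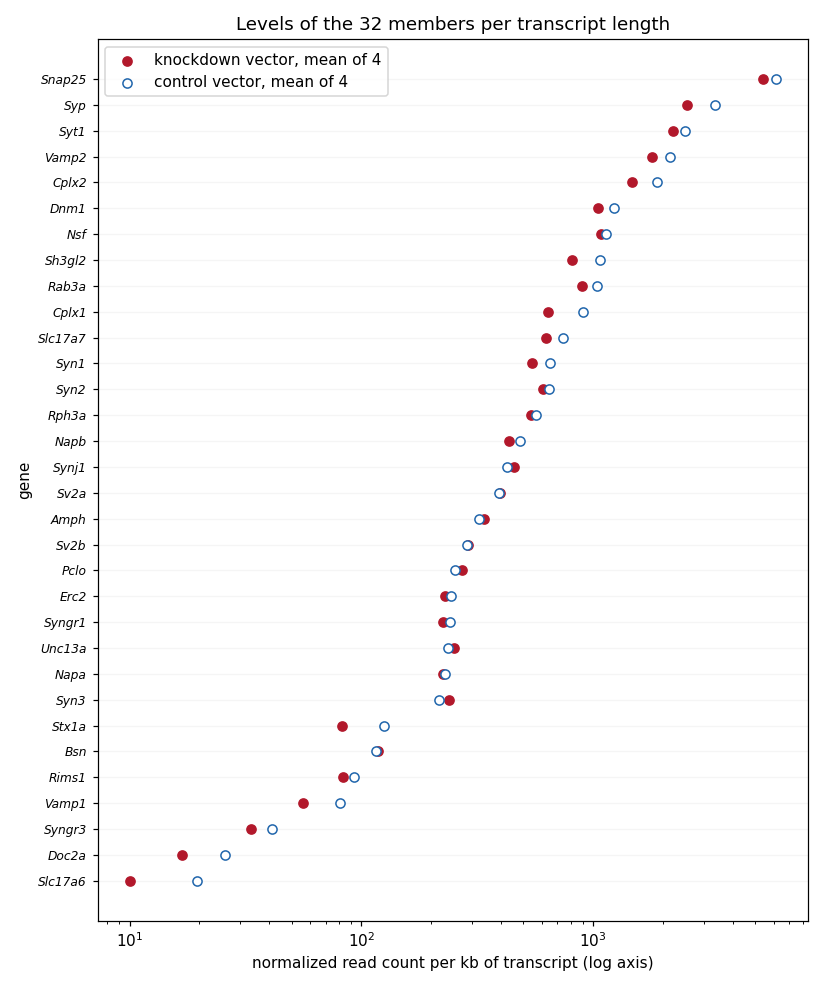
Level of each member per kb of its principal transcript, in normalized read counts on a log axis, as the mean of 4 knockdown libraries (filled) and of 4 control libraries (open). Snap25 leads at 5387 in knockdown and 6158 in control libraries, and Slc17a6 is lowest at 10.0 in knockdown and 19.5 in control libraries.

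Within gene pairs, the ratio of relatives gives a level free of the scaling between libraries. Vamp1, the vesicle SNARE of brainstem and spinal synapses, stood at 2.10% to 4.54% of Vamp2 per kb of principal transcript. The height of such ratios depends on the length used. For Vamp1 over Vamp2 in control libraries it was 3.76% by principal transcript and 1.77% with all annotated exons joined. Slc17a6 stood at 0.382% (KD.249) to 5.10% (eGFP.266) of Slc17a7, which encodes VGLUT1, the transporter of hippocampal and cortical excitatory neurons. Cplx1 (complexin-1) stood at 30.5% of Cplx2 in KD.249, 49.4% in KD.251, 44.2% in KD.253 and 54.1% in KD.255, against 47.5% to 48.8% in the 4 control libraries. The 4 control libraries were thus close to each other in this ratio, and the knockdown libraries lay on both sides of them. Syngr3 stood at 13.0% to 18.9% of Syngr1 (synaptogyrin-1) in these libraries. Napa and Napb, which encode the alpha and beta forms of the NSF adaptor SNAP, were related by 35.7% (KD.255) to 75.5% (eGFP.254).

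The first question was whether the knockdown vector changed these genes, averaged over training. None of the 32 members passed (limma on log2(normalized count + 1), Benjamini-Hochberg adjusted p under 0.05 over all 12681 genes), where 0.103% of all genes did. Most members had a lower mean in knockdown libraries, and in bulk tissue fewer neurons and less RNA per neuron cannot be told apart. The fitted difference was negative for 24 of 32, with a median of -0.16 on the log2 scale, against 55.7% of all genes and a median of -0.03. Without the control library eGFP.268 the median over the members was -0.09. At an unadjusted p under 0.05 there were 4 members, all lower (Syp, Stx1a, Cplx1 and Doc2a), where 2.52% of all genes were lower at that level. By edgeR 0 members passed (0.931% of all genes), by DESeq2 Syp alone passed (1.58% of all genes), and by voom with quality weights, which lets noisy libraries count less, 6 members passed (3.75% of all genes). These 6 were Syp, Stx1a, Vamp1, Cplx1, Slc17a6 and Doc2a, all lower.

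Syp had no overlap between the vectors. It stood at 5743 (KD.249) and 6176 (KD.251) in trained and 7647 (KD.253) and 6828 (KD.255) in untrained knockdown libraries. In control libraries it stood at 8547 (eGFP.250) and 8464 (eGFP.266) with training and 9034 (eGFP.254) and 8614 (eGFP.268) without. Every knockdown value lay below every control value. The means were 6598 ± 829 in knockdown and 8665 ± 253.8 in control libraries (n = 4 each, ± SD), a ratio of 0.762. The fitted difference was -0.40 (SE 0.12, limma adjusted p = 0.572, edgeR adjusted p = 0.380), and DESeq2 gave an adjusted p of 0.0404 and voom one of 0.0414. Over the 20 alternative settings the difference lay between -0.46 and -0.36. An annotated antisense gene, Gm14703, shares 875 exonic bases with Syp on the opposite strand, and the strand setting of the counting is not given in the sources used here.

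Stx1a was the other member without overlap. It stood at 206 and 162 in trained and 142 and 202 (13 reads, interval 108 to 346) in untrained knockdown libraries. In control libraries it stood at 256 and 369 with training and 228 and 232 without. All knockdown values lay below all control values, and the highest control value was 1 trained library. The means were 178 ± 31.2 in knockdown and 271 ± 66.6 in control libraries (n = 4 each, ± SD), and the difference of -0.59 (SE 0.19) had an adjusted p of 0.645 by limma and 0.00682 by voom. Such full separation with knockdown below control held for 2 of the 32 members and for 1.98% of all genes, and no member had all knockdown values above all control values.

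**Figure D2:**
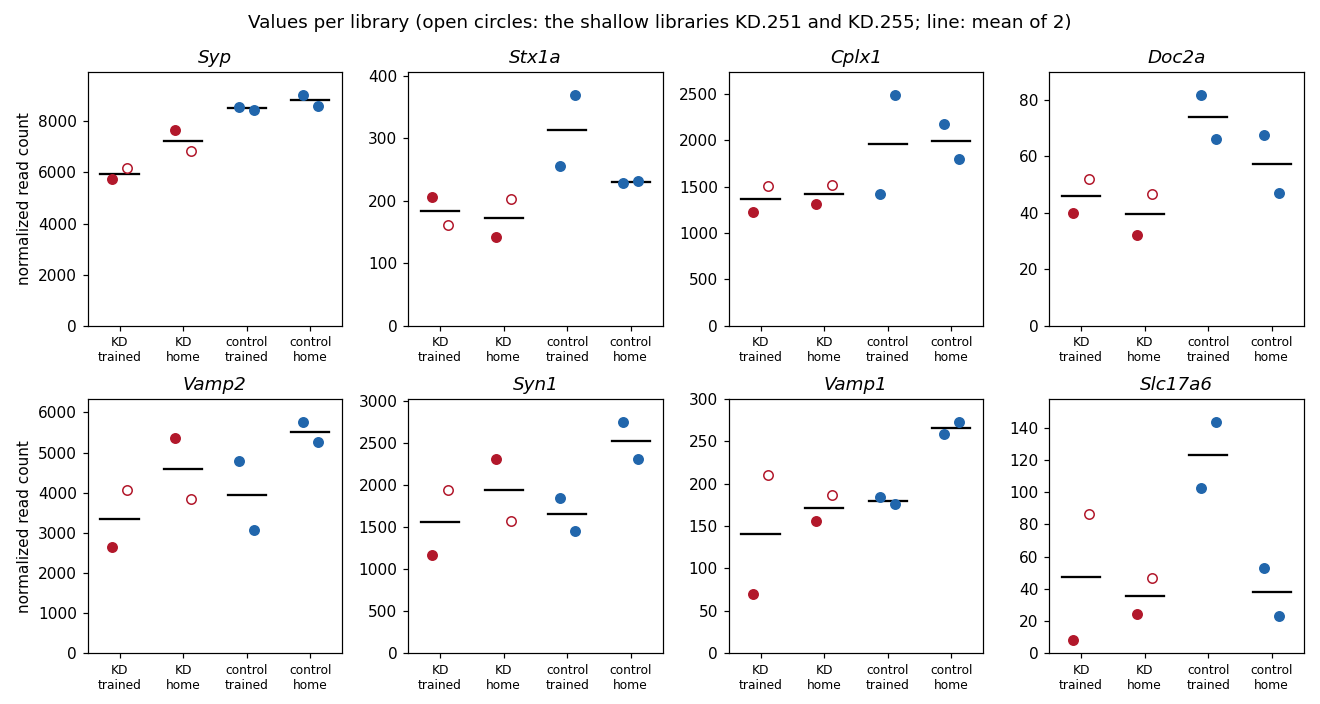
Normalized read count per library for 8 members, with the axis from 0, knockdown (red) left of control (blue), trained left of home cage, and a line at the mean of 2 libraries. Open circles are the shallow libraries KD.251 and KD.255. Syp and Stx1a have no overlap between vectors (at most 7647 against at least 8464 for Syp), while the other 6 genes overlap.

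Among the SNAREs and the genes of SNARE disassembly, all 7 had a negative difference (median -0.23) and 0 passed. Vamp1 had 69.6 and 211 normalized counts in trained and 156 and 187 (12 reads, interval 96.4 to 326) in untrained knockdown libraries. In control libraries it had 185 and 176 with training and 259 and 273 without. The low value of KD.249 stood apart from the other trained knockdown library, and the vectors overlapped. The difference of -0.60 (SE 0.29, limma adjusted p = 0.873, voom adjusted p = 0.0084) was -0.29 without KD.249 and -0.93 without KD.251. It was -1.06 without both shallow libraries (adjusted p = 0.0211, with 1.69% of all genes passing in that fit). Snap25 averaged 11400 ± 3662 in knockdown and 13031 ± 2745 in control libraries (n = 4 each, ± SD). Vamp2 averaged 3973 ± 1114 in knockdown and 4724 ± 1165 in control libraries. Nsf, the ATPase that separates SNARE complexes, averaged 4051 ± 353 in knockdown and 4290 ± 614 in control libraries. Napa averaged 563 ± 84.5 in knockdown and 577 ± 95.1 in control libraries, and Napb 1918 ± 458 in knockdown and 2138 ± 483 in control libraries. For these 5 genes the distance between the means was smaller than the SD of either vector.

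Among the genes of calcium sensing and fusion control, all 6 had a negative difference (median -0.27) and 0 passed. Cplx1 stood at 1226 and 1509 in trained and 1310 and 1524 in untrained knockdown libraries. In control libraries it stood at 1425 and 2490 with training and 2177 and 1804 without. The knockdown values were close together and 3 of the 4 control values lay above them. Cplx1 averaged 1392 ± 147 in knockdown and 1974 ± 461 in control libraries (n = 4 each, ± SD), with a difference of -0.48 (SE 0.18, limma adjusted p = 0.830, voom adjusted p = 0.0114). Cplx2 averaged 7242 ± 1235 in knockdown and 9243 ± 2229 in control libraries. Doc2a stood at 39.9 and 51.9 (18 reads) in trained and 32.3 and 46.7 (3 reads, interval 9.62 to 136) in untrained knockdown libraries. In control libraries it stood at 81.7 and 66.0 with training and 67.5 and 47.0 without. The untrained control library eGFP.268 fell among the knockdown values, and the others lay above them. Doc2a averaged 42.7 ± 8.50 in knockdown and 65.5 ± 14.2 in control libraries, with a difference of -0.60 (SE 0.24, limma adjusted p = 0.848, voom adjusted p = 0.0162). Its exons share 951 bases with Ino80e, a chromatin remodeller subunit gene on the opposite strand. Syt1 averaged 10622 ± 836 in knockdown and 12022 ± 2123 in control libraries. Rab3a, the small GTPase that tethers vesicles, averaged 1392 ± 102 in knockdown and 1619 ± 195 in control libraries. Rph3a (rabphilin, an effector of Rab3) averaged 2226 ± 166 in knockdown and 2349 ± 500 in control libraries.

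The scaffold genes of the active zone had the median difference nearest to 0. Of 5 genes, 3 had a positive and 2 a negative difference, the median was 0.02 and 0 passed. Unc13a (Munc13-1, which primes vesicles for fusion) averaged 2575 ± 460 in knockdown and 2417 ± 455 in control libraries (n = 4 each, ± SD). Bsn (bassoon) averaged 1873 ± 234 in knockdown and 1843 ± 231 in control libraries, and Pclo (piccolo) averaged 5471 ± 517 in knockdown and 5074 ± 951 in control libraries. Both are giant scaffold proteins of the active zone. Rims1 (RIM1, which ties calcium channels to vesicles) averaged 535 ± 65.7 in knockdown and 602 ± 102 in control libraries. Erc2 (CAST, a binding partner of RIM) averaged 1435 ± 196 in knockdown and 1521 ± 326 in control libraries. Differences ran from -0.16 to 0.12 in this group, and whether they differ from those of the other groups was not tested.

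Among the vesicle membrane and reserve pool genes, 5 of 8 had a negative difference (median -0.10) and 0 passed. The summed level of the 8 genes was 13128 to 16544 in knockdown and 16688 to 18079 in control libraries, a sum in which Syp is the largest term. Without Syp the summed levels of the vectors overlapped, with KD.253 above eGFP.250. Syn1 (synapsin I) averaged 1747 ± 488 in knockdown and 2090 ± 562 in control libraries (n = 4 each, ± SD). Syn2 (synapsin II) averaged 1642 ± 72.6 in knockdown and 1746 ± 200 in control libraries. Syn3 (synapsin III) averaged 561 ± 188 in knockdown and 509 ± 82.6 in control libraries. Sv2a, the vesicle glycoprotein that the drug levetiracetam binds, averaged 1713 ± 222 in knockdown and 1707 ± 171 in control libraries. Sv2b, its relative, averaged 1599 ± 420 in knockdown and 1572 ± 378 in control libraries. Syngr1 averaged 941 ± 110 in knockdown and 1010 ± 54.7 in control libraries, and Syngr3 65.5 ± 12.6 in knockdown and 80.8 ± 10.96 in control libraries. Syngr3 had 28 reads in KD.251 and 4 reads in KD.255 (interval 17 to 159). Syp is the only one of these 8 in which the vectors did not overlap.

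Of the glutamate transporter genes, Slc17a7 averaged 1830 ± 492 in knockdown and 2168 ± 473 in control libraries (n = 4 each, ± SD). Slc17a6 was the most variable member, with a 17.5-fold range over the 8 libraries. It stood at 8.19 (16 reads) and 86.5 (30 reads) in trained and 24.4 and 46.7 (3 reads, interval 9.62 to 136) in untrained knockdown libraries. In control libraries it stood at 102 and 144 with training and 52.9 and 23.1 without. The trained knockdown libraries lay farthest apart, the trained control libraries were the highest, and the vectors overlapped. The difference of -1.08 (SE 0.70, limma adjusted p = 0.873, voom adjusted p = 0.0477) moved between -1.52 and -0.22 as single libraries were left out, and was -0.22 without KD.249. Markers of thalamus and habenula, where Slc17a6 is abundant, summed to 1120 to 1442 in knockdown and 1192 to 1927 in control libraries over 12 tested genes. Tcf7l2, the defining marker of these regions, was highest in eGFP.250 at 78.6. It was 34.0 in eGFP.266, the library with the most Slc17a6, and no library was at 0. The part of these regions in the Slc17a6 values was not tested.

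Of the 4 endocytosis genes, 2 had a negative and 2 a positive difference (median -0.08) and 0 passed. Dnm1 (dynamin-1, the GTPase that pinches vesicles off) averaged 3931 ± 388 in knockdown and 4622 ± 738 in control libraries (n = 4 each, ± SD). Sh3gl2 (endophilin A1, which senses membrane curvature) averaged 2281 ± 668 in knockdown and 3012 ± 1187 in control libraries. Synj1 (synaptojanin-1, the lipid phosphatase of uncoating) averaged 3220 ± 390 in knockdown and 3009 ± 602 in control libraries. Amph (amphiphysin, which recruits dynamin) averaged 1133 ± 64.9 in knockdown and 1087 ± 149 in control libraries, and had the smallest range of all members, 1.30-fold over the 8 libraries.

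**Figure D3:**
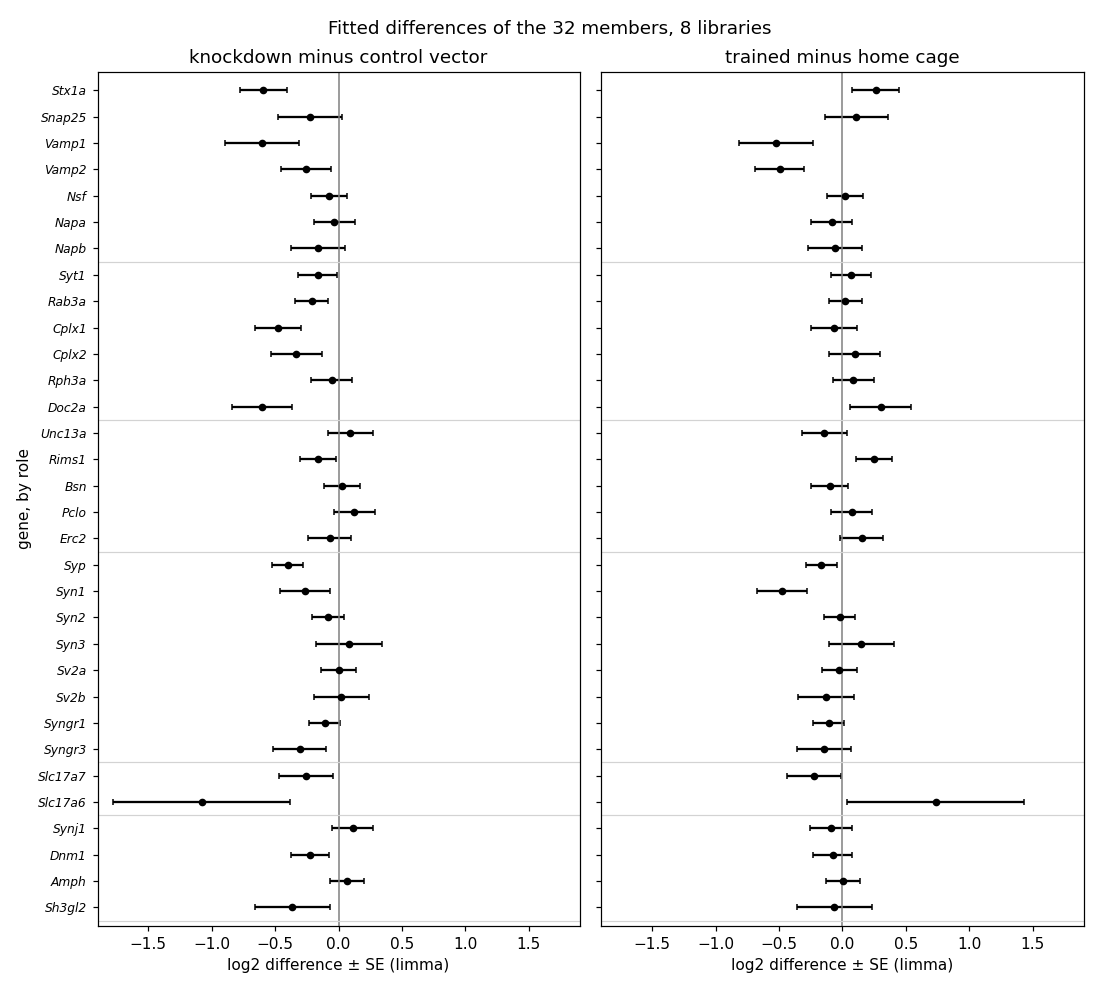
Fitted log2 difference with its standard error for the 32 members, ordered by role, for knockdown minus control vector (left) and trained minus home cage (right), 8 libraries in each fit. No member passed in either panel, 24 members lie left of 0 in the left panel and 18 in the right panel.

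Wider lists put the small shift of the members in context. Of 76 other tested presynaptic genes, 47 had a negative difference (median -0.08). By limma 0 of them passed, and edgeR called 1, DESeq2 2 and voom 3. At an unadjusted p under 0.05 there were 7, all lower, where 709 of all 12681 genes were at that level in either direction and 319 were lower. The one that edgeR called was Dnm3 (dynamin-3), at 298 and 441 in trained and 305 and 389 in untrained knockdown libraries, against 784 and 679 in trained and 485 and 683 in untrained control libraries. All 4 knockdown values of Dnm3 lay below the 4 control values, with a difference of -0.87 (SE 0.18, limma adjusted p = 0.201, edgeR adjusted p = 0.0305). The other large differences of that list were those of Cplx3 (complexin-3), at -2.25 (SE 0.81, limma adjusted p = 0.792), and Unc13c (Munc13-3), at -1.07 (SE 0.40, limma adjusted p = 0.814). Cplx3 had 0 to 27 reads in knockdown libraries, and the value for Unc13c includes 1 control library, eGFP.250, at 518 normalized counts against at most 170 in the others. Of 28 postsynaptic genes 17 were lower (median -0.06), and of 20 general neuronal genes 15 were lower (median -0.20), with 0 passing in either list by limma or edgeR. By unadjusted p under 0.05 the counts were 1 postsynaptic gene, which was higher in knockdown libraries, and 6 general neuronal genes, all lower. DESeq2 called 0 and 2 and voom 0 and 1. Of 10 inhibitory presynaptic genes 6 were lower (median -0.16) and of 14 pyramidal cell markers 11 were lower (median -0.20). In these lists too 0 passed by limma or edgeR, and voom called 1 and 1. At an unadjusted p under 0.05 there were 2 inhibitory genes, 1 higher and 1 lower, and 1 pyramidal marker, which was higher. The median of the members, -0.16, lay within the span of these list medians.

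Microglial markers stood higher in knockdown libraries. All 13 microglial markers had a higher mean in knockdown libraries (median 0.82). Of these, 0 passed by limma, 2 by edgeR, 5 by DESeq2 and 11 by voom. At an unadjusted p under 0.05 there were 10, all higher, where 390 of all 12681 genes were higher at that level. Their summed level was 2048 to 3485 in knockdown and 1436 to 1671 in control libraries. Cx3cr1, the defining microglial marker, was read in all libraries, at 196 to 332 in knockdown and 151 to 216 in control libraries. Oligodendrocyte markers also had a higher mean in knockdown libraries for 12 of 12 genes (median 0.28). Of these, 0 passed by limma, 1 by edgeR, 1 by DESeq2 and 1 by voom, and 3, all higher, had an unadjusted p under 0.05. Their sums were 18430 to 30321 in knockdown and 11733 to 26579 in control libraries. The part of these cells in the values of the members was not tested. The libraries eGFP.266 and eGFP.268 carry higher numbers than the other 6, and had the largest shares of reads in the members (2.25% and 2.38%). Both are control libraries. With the set of library numbers as a term in the fit, knockdown averaged over training therefore rested on eGFP.250 and eGFP.254 as controls. These are the libraries high in choroid plexus markers. The median over the members was then -0.04 in place of -0.16.

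**Figure D4:**
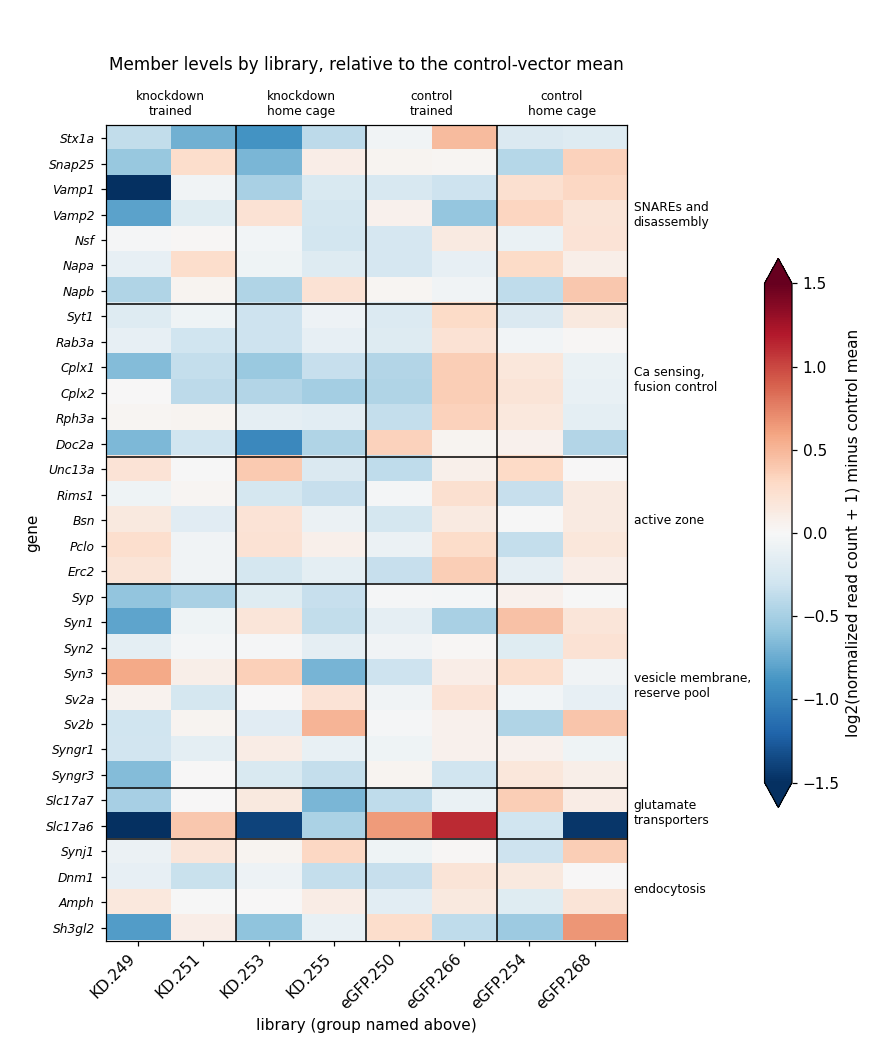
Each member (ordered by role) in each library, as log2(normalized read count + 1) minus the mean of the 4 control libraries, with knockdown libraries at the left and a colour scale that ends at 1.5 in each direction. Syp, Stx1a, Syt1, Vamp1, Syn2, Rab3a, Cplx1, Doc2a and Dnm1 lie below the control mean in all 4 knockdown libraries, and single control libraries also lie below it, such as eGFP.250 for Cplx1 (-0.44), whereas Snap25 and Sh3gl2 are blue or red in libraries of the same group.

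Within untrained mice, 0 members passed between knockdown and control libraries by limma (0% of all genes), by edgeR (0.181% of all genes), by DESeq2 (0.434%) or by voom (0.00789%). No member had an unadjusted p under 0.05, against 4.5% of all genes in either direction. The fitted difference was negative for 27 of 32 members (median -0.21), against 55.2% of all genes (median -0.05). The largest differences were -0.64 (SE 0.43) for Vamp1, -0.53 (SE 0.37) for Doc2a and -0.51 (SE 0.29) for Cplx2, with limma adjusted p of 0.817, 0.817 and 0.816. That of Doc2a was -0.27 without KD.253 and likewise -0.27 without eGFP.254. Both knockdown values lay below both control values for 11 members, Syp, Stx1a, Vamp1, Rab3a, Cplx1, Cplx2, Napa, Erc2, Doc2a, Dnm1 and Syngr3. That pattern held for 16.8% of all genes. Among these members, Stx1a, Vamp1, Doc2a and Syngr3 had 13, 12, 3 and 4 reads in KD.255. The counting interval of each there spanned both of its untrained control values (17 to 159 for Syngr3). Doc2a stood at 46.7 in KD.255 against 47.0 in eGFP.268. Sv2a alone had both knockdown values above both control values, a pattern of 14.4% of all genes. Library KD.255, with 272456 reads, is 1 of the 2 knockdown libraries here. Granule cell markers were lower in this group for 11 of 11 genes (median -0.54, 0 passing by limma, 2 at an unadjusted p under 0.05 and 0 by edgeR or DESeq2). Prox1, the defining granule marker, stood at 935 and 575 in knockdown against 1005 and 587 in control libraries. The part of granule cells in the values of the members was not tested.

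Within trained mice, 0 members passed between knockdown and control libraries by limma (0.00789% of all genes), edgeR (0.00789%), DESeq2 (0.26%) or voom (0.00789%). At an unadjusted p under 0.05, 3 members were lower, Syp, Stx1a and Slc17a6, against 1.34% of all genes. The fitted difference was negative for 22 of 32 members (median -0.15), against 50.7% of all genes (median -0.00). Syp differed by -0.51 (SE 0.19), Stx1a by -0.75 (SE 0.28), Slc17a6 by -2.11 (SE 0.90) and Doc2a by -0.68 (SE 0.37), each with a limma adjusted p of 1.00. The difference of Stx1a was -0.49 without eGFP.266. Both knockdown values lay below both control values for 5 members, these 4 and Syngr1, a pattern of 14.8% of all genes, and no member showed the opposite pattern, which held for 14.4% of all genes. Slc17a6 passed without both shallow libraries (-3.73, adjusted p = 0.0128, with 0.582% of all genes passing in that fit). KD.249 was then the lone trained knockdown library, assumed to vary like the other groups, and without KD.249 the difference was -0.48. Granule cell markers were higher in trained knockdown than in trained control libraries for 11 of 11 genes (median 0.81, 0 passing by limma), with Prox1 at 957 and 793 in knockdown against 330 (eGFP.250) and 750 (eGFP.266) in control libraries, and their part in these values was not tested.

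The second question was what training changed 30 min after the last trial, averaged over the vector. By limma 0 members passed (0% of all genes), by edgeR 0 (0% of all genes) and by DESeq2 0 (0.13% of the 9239 genes it gave an adjusted p). By voom 4 passed, where 5.15% of all genes did. Of these 4, Stx1a was higher in trained libraries (0.51 by voom), and Vamp1 (-0.81), Vamp2 (-0.77) and Syn1 (-0.76) were lower. The members split nearly evenly, with 18 of 32 lower in trained libraries (median -0.04), against 44.9% of all genes (median 0.03). At an unadjusted p under 0.05 there were 2 members, Vamp2 and Syn1, both lower, where 2.47% of all genes were lower at that level. Vamp2 stood at 2635 and 4062 in trained against 5355 and 3841 in untrained knockdown libraries, and at 4796 and 3078 in trained against 5756 and 5267 in untrained control libraries. The low values were 1 library of each trained group, KD.249 and eGFP.266, and trained and untrained values overlapped in knockdown mice but not in control mice. Vamp2 averaged 3643 ± 973 in trained and 5055 ± 836 in untrained libraries (n = 4 each, ± SD), with a difference of -0.49 (SE 0.20, limma adjusted p = 0.873, voom adjusted p = 0.0188).

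Syn1 followed the same libraries. It stood at 1171 and 1938 in trained against 2309 and 1571 in untrained knockdown libraries, and at 1850 and 1452 in trained against 2749 and 2308 in untrained control libraries. Its lowest values were again KD.249 and eGFP.266, followed by the untrained library KD.255. Syn1 averaged 1603 ± 357 in trained and 2234 ± 488 in untrained libraries (n = 4 each, ± SD), with a difference of -0.48 (SE 0.20, limma adjusted p = 0.873, voom adjusted p = 0.0197). Vamp1 differed by -0.52 (SE 0.29, limma adjusted p = 0.873) and Slc17a6 by 0.73 (SE 0.70, limma adjusted p = 0.873). The difference of Vamp1 was -0.21 without KD.249 and -0.85 without KD.251. That of Slc17a6 was 0.29 without KD.251, 0.30 without eGFP.268, 0.43 without eGFP.266, 1.12 without KD.255 and 1.59 without KD.249. Oligodendrocyte markers had a higher mean in trained libraries for 12 of 12 genes (median 0.63). Of these, 0 passed by limma or edgeR, 2 by DESeq2 and 5 by voom. At an unadjusted p under 0.05 there were 8, all higher, where 303 of all 12681 genes were higher at that level. Their summed level in trained libraries was 19675 and 30321 with the knockdown and 22216 and 26579 with the control vector. In untrained libraries it was 18430 and 20249 with the knockdown and 16528 and 11733 with the control vector. Mog, their defining marker, was read in all libraries, at 99.8 to 239 normalized counts. The part of this in the values of Vamp2 and Syn1 was not tested.

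In control mice, training gave 0 calls among the members by limma (0% of all genes), edgeR (0%), DESeq2 (0.0315%) or voom (0%), and 0 members with an unadjusted p under 0.05, against 1.43% of all genes. The difference was negative for 21 of 32 (median -0.04), against 47.9% of all genes (median 0.01). The largest were 1.76 (SE 0.90) for Slc17a6, -0.62 (SE 0.29) for Syn1 and -0.56 (SE 0.43) for Vamp1, each with a limma adjusted p of 1.00. Both trained values lay below both untrained values for 7 members, Syp, Vamp1, Vamp2, Syn1, Slc17a7, Napa and Syngr3, against 14.3% of all genes. They lay above for Stx1a and Slc17a6, against 14.5% of all genes. Vamp1, for example, stood at 185 and 176 in trained against 259 and 273 in untrained control libraries. Granule cell markers were lower in trained control libraries for 11 of 11 genes (median -0.63, 1 at an unadjusted p under 0.05), with a summed level of 3569 and 4723 in trained against 6021 and 5308 in untrained control libraries. Oligodendrocyte markers were higher there for 12 of 12 (median 0.83, 7 at an unadjusted p under 0.05). By limma, edgeR or DESeq2 0 genes of either list passed, and their part in the values of the members was not tested.

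In knockdown mice, training likewise gave 0 calls among the members by limma (0% of all genes), edgeR (0%), DESeq2 (0%) or voom (0%), and 0 members with an unadjusted p under 0.05, against 4.48% of all genes. The difference was negative for 17 of 32 (median -0.01), against 45.9% of all genes (median 0.04). The largest were 0.50 (SE 0.35) for Syn3, -0.49 (SE 0.43) for Vamp1 and -0.47 (SE 0.29) for Vamp2, with limma adjusted p of 0.807, 0.832 and 0.802. Syn3 stood at 750 and 537 in trained against 646 and 311 (20 reads, interval 190 to 480) in untrained knockdown libraries, and its difference was -0.03 without the shallow library KD.255, 0.26 without KD.249 and 1.03 without KD.253. The difference of Vamp1 was 0.30 without KD.249 and -1.28 without KD.251. That of Vamp2 was -0.16 without KD.249, -0.23 without KD.253, -0.78 without KD.251 and -0.71 without KD.255. Both trained values lay below both untrained values for Syp and Syngr1, against 14% of all genes. They lay above for Cplx2, Rims1, Nsf, Erc2 and Rph3a, against 16.4% of all genes. Granule cell markers were higher in trained knockdown libraries for 11 of 11 genes (median 0.84, 0 passing by limma, edgeR or DESeq2 and 3 at an unadjusted p under 0.05). Their summed level was 6001 and 6589 in trained against 5188 and 3188 in untrained knockdown libraries, and their part in the values of the members was not tested.

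Whether training acted differently under the 2 vectors was tested by the interaction term. By limma 0 members passed (0% of all genes), as by edgeR (0%), DESeq2 (0%) and voom (0%), and 0 had an unadjusted p under 0.05, against 0.883% of all genes. The interaction was negative for 12 of 32 members (median 0.05), against 47.1% of all genes (median 0.03). The largest were -2.06 (SE 1.28) for Slc17a6, 0.70 (SE 0.49) for Syn3 and 0.57 (SE 0.30) for Napa, each with a limma adjusted p of 1.00. The value of Slc17a6 was -0.43 without KD.249 and -3.68 without KD.251, that of Napa 0.38 without KD.251, and that of Syn3 0.17 without KD.255, 0.46 without KD.249 and 1.23 without KD.253. Napa stood at 523 and 687 in trained against 546 and 498 in untrained knockdown libraries, and at 479 and 526 in trained against 696 and 608 in untrained control libraries. No member had training shifts without overlap in opposite directions under the 2 vectors. Granule cell markers had a positive interaction for 11 of 11 genes (median 1.50, 0 passing by limma, edgeR or DESeq2 and 5 at an unadjusted p under 0.05), and oligodendrocyte markers a negative one for 12 of 12 (median -0.46, 0 by any of these 3 and 0 at an unadjusted p under 0.05). Their part in the interaction values of the members was not tested.

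For some members, libraries of one group lay far apart. Over all libraries of the 4 groups, the ratio of the highest to the lowest was under 2 for 21 of 32 members, with a median of 1.67. How the variation divides within and between groups was not tested. Snap25, Sh3gl2, Napb and Sv2b shared their lowest libraries, KD.249, KD.253 and eGFP.254, a set that was lowest for 4.68% of all genes. Snap25 stood at 8629 and 15318 in trained and 7950 and 13702 in untrained knockdown libraries, and at 13215 and 13113 in trained and 9542 and 16254 in untrained control libraries. Sh3gl2 stood at 1588 and 3038 in trained and 1872 and 2628 in untrained knockdown libraries, and at 3427 and 2178 in trained and 1944 and 4501 in untrained control libraries. In both genes the libraries of each knockdown group lay farther apart than the means of the vectors did. The 4 genes were grouped by their lowest libraries, which fixes part of their pattern. By that grouping the deeper knockdown libraries KD.249 and KD.253 lie below the shallow KD.251 and KD.255, and eGFP.254 lies below eGFP.268. Depth and these values cannot be told apart in knockdown mice. For Unc13a, Bsn and Dnm1 the shallow KD.251 and KD.255 were instead among the lowest libraries.

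**Figure D5:**
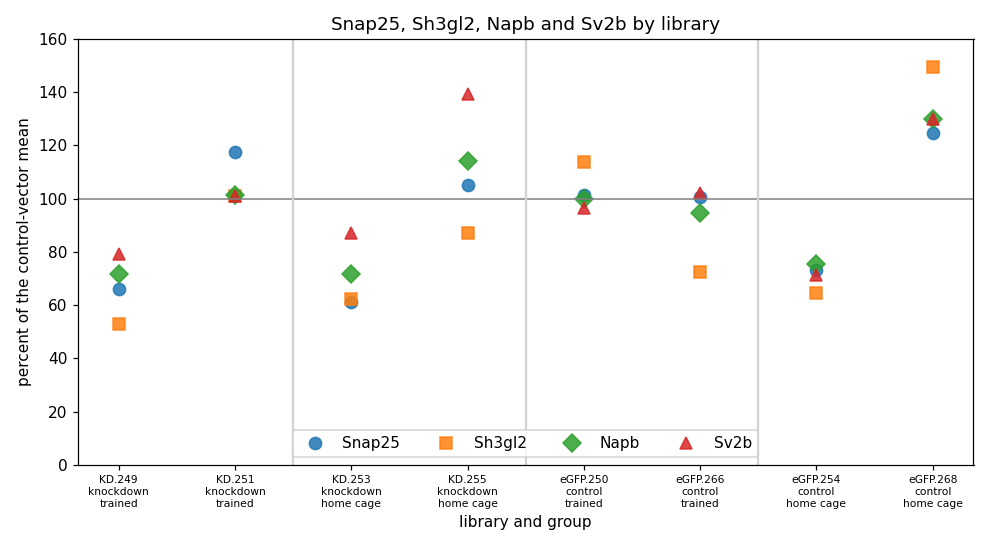
Snap25, Sh3gl2, Napb and Sv2b in each library as a percent of the gene's mean over the 4 control libraries (axis from 0), knockdown libraries left of control libraries. All 4 genes lie below 100 percent in KD.249, KD.253 and eGFP.254 and above it in eGFP.268. The genes were grouped by sharing KD.249, KD.253 and eGFP.254 as their lowest libraries.

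A second set, Vamp2, Syn1 and Syngr3, shared KD.249, KD.255 and eGFP.266 as its lowest libraries (4.57% of all genes), though Syngr3 had 4 reads in KD.255. Another set, Unc13a, Bsn and Dnm1, was lowest in eGFP.250, KD.251 and KD.255 (3.58% of all genes). Unc13a stood at 2752 and 2380 in trained and 3117 and 2053 in untrained knockdown libraries, and at 1828 and 2517 in trained and 2931 and 2393 in untrained control libraries. Granule cell markers were also low in eGFP.250 and KD.255, with a median of -0.82 and -0.68 relative to controls, but not in KD.251, with 0.38. Their part in these values was not tested. Syn1 stood at 62.8% (KD.249) to 151% (eGFP.254) of Syn2 per kb of principal transcript, so the 2 synapsins did not keep a fixed ratio across libraries.

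Other exon overlaps in the annotation concern Unc13a with Colgalt1 (495 bases), Pclo with Gm26954 (496 bases) and Gm26918 (429 bases), Syn2 with Timp4 (90 bases), Sv2b with 1500012K07Rik (47 bases) and Syn1 with Araf (5 bases), all on the opposite strand, and Bsn with the miRNA gene Gm47303 (57 bases) on the same strand. Reads from such shared stretches could have been counted for either gene or left out.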

How the data were processed

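The authors deposited 1 table of normalized signal, with a value for each gene in each library. The submitters' processing notes list STAR 2.3.0, HTSeq 0.6.1, DESeq, bedtools and bcl2fastq 02.14.01.07, and build mm10. Neither the annotation nor the strand setting is given in the sources used here. All deposited values (100%) were whole multiples of 1 unit per library (relative tolerance 1e-06), that is, a read count divided by a size factor. The limit that a count of 0 allows (3 reads) is 46.7 normalized counts in KD.255, 8.65 in KD.251 and at most 1.98 elsewhere. Intervals beside read numbers are exact 95% Poisson intervals and, without molecular identifiers, cover counting error only. The 5 summary entries of the counter stayed out. Replicate libraries differed beyond sampling noise (chi-square per degree of freedom 2.16 to 38.2). P-values measure the spread between libraries, which may be technical.

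limma 3.58.1 (R 4.3.3) with an intensity trend was fitted to log2(normalized count + 1) of 12681 genes (mean of 10 or more), in 1 fit of 4 group means with 7 comparisons, those averaged over a factor from an additive model. Benjamini-Hochberg adjustment ran over all tested genes. Fold changes on this scale understate low genes. edgeR 4.0.16 (quasi-likelihood), DESeq2 1.42.0 and voom ran on the recovered reads. The fits were also run on simulated counts with known changes and the same spread for every gene. That does not show how they behave on these libraries. The members and lists were chosen with earlier results of these data known. Differences are given for members with an unadjusted p under 0.05 or among the 3 largest of a comparison, and for other presynaptic genes among the 3 largest for knockdown averaged over training. Transcript lengths and exon overlaps come from GENCODE vM21 (GRCm38), which may not be the authors' annotation.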

Additional observations from a re-analysis of the deposited data

How the results depend on the processing

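Results were recomputed under 20 alternative settings, of which 2 (only the 6 libraries with lower numbers, and without eGFP.250 and eGFP.254) were chosen after seeing the data. For knockdown averaged over training, where limma called 0 members, DESeq2 called 1 and voom with quality weights 6, and without both shallow libraries 1 member passed. In trained mice 1 member passed without both shallow libraries, and for training averaged over the vector voom called 4. With the set of library numbers as a term, the member median was -0.041 for knockdown averaged over training, -0.074 in untrained and -0.0093 in trained mice. With only the 6 libraries with lower numbers it was -0.041 averaged over training and -0.025 in trained mice, but -0.19 in untrained mice. Averaged over training, both settings set the knockdown libraries against eGFP.250 and eGFP.254, so they are not separate checks. Without eGFP.250 and eGFP.254 the member median was -0.25 averaged over training, -0.26 in untrained and -0.19 in trained mice. Leaving out 1 library in turn, it lay between -0.22 and -0.094 for knockdown averaged over training (nearest to 0 without eGFP.268), between -0.20 and -0.0064 for knockdown in trained mice (nearest to 0 without KD.249), between -0.17 and 0.076 for training in control mice and between -0.084 and 0.16 for the interaction. For training in knockdown mice, leaving out 1 library gave differences between -1.28 and 0.30 for Vamp1 and between -0.026 and 1.03 for Syn3. Single members were followed over the settings only for the differences selected by p or size as described above. Among these selected differences, only those 2 reversed, and 12 values became calls. Values outside this selection could also change sign between methods. For training in knockdown mice, Slc17a6 differed by -0.29 by limma and -0.815 by voom, but by 0.40 by edgeR and 0.49 by DESeq2. The causes were not tested. TMM scaling moved the median of all genes by at most 0.040. No paired analysis was possible because the deposited columns carry no replicate number of the labels. With 2 libraries a group and 272456 reads in KD.255, low genes are poorly measured, and the counting interval of Doc2a and Slc17a6 in KD.255 (9.62 to 136) spans most values of both vectors.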
